A study of Mus musculus with 7 samples.

Results

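Snrpn, Peg10, Mest, Ndn, Impact, Slc38a4, Mkrn3 and Magel2 are 8 imprinted genes of the mouse. All probes carrying one of these symbols in the platform annotation were taken, which gave 11 of the 25697 probes on the array: 3 for Mest, 2 for Snrpn and 1 for each other gene. The study hybridised 7 RNA samples, each to 1 Illumina bead array. All cells were of the OG2 strain of mice, which carries a fluorescent reporter under control of Pou5f1 regulatory DNA. LinNeg_BM was 1 array of marrow cells without lineage markers, from which the 3 lines of induced pluripotent stem cells (iPSCs) called LinNeg_iPSC were derived (lines 1.1.2, 7 and 9, with 1 array each). The remaining groups had 1 array each: LinPos_iPSC, an iPSC line (1.1) derived from lineage-positive marrow, MEF_iPSC, derived from embryonic fibroblasts, and ESC, embryonic stem cells. The labels give bone marrow as the tissue of every sample, no age, no reprogramming factors and no statement that the lines came from separate animals. The p-values below therefore rest on the spread between the 3 lines, which limma draws towards the spread typical of all genes. A lone array was taken to share that spread.

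An imprinted gene is read mainly from the copy inherited from one parent, according to DNA methylation set in the egg or the sperm and kept through the divisions of the embryo. All 8 genes are known in the mouse as paternally expressed, meaning that the copy from the father is active. In cultured pluripotent cells such marks can be lost or gained, which is why imprinted genes are often examined in iPSC lines. These arrays measured total RNA per gene and did not tell the parental copies apart.

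Snrpn, Ndn, Magel2 and Mkrn3 lie together on chromosome 7, in the mouse counterpart of the human Prader-Willi region, where a control element at the start of Snrpn governs the cluster. Peg10 and Mest lie apart from each other on chromosome 6, and Slc38a4 and Impact each lie on another chromosome. Promoter sequence was listed for 6 of the 8 genes in RefSeq (GRCm38.p6), with 13 starts in all. Peg10 and Impact had no entry. The sequences below are the 250 bases before a start, 5′ to 3′ on the gene's strand, with CpG sites in capitals because these are the sites that imprinting methylates. They show the 4 genes of the chromosome 7 cluster, of which Magel2 alone was below background on all pluripotent arrays, and Mest for comparison. The 2 Snrpn entries are the start it shares with Snurf (chr7:60005200-60005449, minus strand) and its most distant upstream start (chr7:60450178-60450427, minus strand), and the others are Ndn (chr7:62348027-62348276, plus strand), Magel2 (chr7:62376729-62376978, plus strand), Mkrn3 (chr7:62420154-62420403, minus strand) and Mest (chr6:30737800-30738049, plus strand).
Snrpn, shared start: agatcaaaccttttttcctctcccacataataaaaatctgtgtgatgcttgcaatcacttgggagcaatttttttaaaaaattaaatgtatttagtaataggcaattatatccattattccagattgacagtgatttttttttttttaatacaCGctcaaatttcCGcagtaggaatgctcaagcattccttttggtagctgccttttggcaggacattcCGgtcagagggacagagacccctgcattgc
Snrpn, upstream start: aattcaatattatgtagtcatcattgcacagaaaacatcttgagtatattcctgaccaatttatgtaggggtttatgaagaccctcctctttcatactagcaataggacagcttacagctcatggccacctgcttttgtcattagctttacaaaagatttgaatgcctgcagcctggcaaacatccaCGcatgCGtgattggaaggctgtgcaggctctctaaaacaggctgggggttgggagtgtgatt
Ndn: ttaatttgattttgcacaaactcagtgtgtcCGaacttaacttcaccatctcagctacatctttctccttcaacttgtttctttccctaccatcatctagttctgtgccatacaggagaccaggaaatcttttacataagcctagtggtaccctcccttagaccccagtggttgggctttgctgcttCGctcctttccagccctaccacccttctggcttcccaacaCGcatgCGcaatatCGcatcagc
Magel2: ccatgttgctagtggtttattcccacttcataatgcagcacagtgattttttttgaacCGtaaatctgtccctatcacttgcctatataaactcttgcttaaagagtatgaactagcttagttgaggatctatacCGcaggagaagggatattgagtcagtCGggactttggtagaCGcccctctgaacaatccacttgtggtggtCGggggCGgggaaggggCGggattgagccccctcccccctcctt
Mkrn3: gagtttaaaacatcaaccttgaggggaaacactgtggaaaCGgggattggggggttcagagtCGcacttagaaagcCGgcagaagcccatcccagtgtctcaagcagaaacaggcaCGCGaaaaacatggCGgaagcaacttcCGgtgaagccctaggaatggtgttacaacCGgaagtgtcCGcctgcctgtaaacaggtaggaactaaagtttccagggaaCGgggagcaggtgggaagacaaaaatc
Mest: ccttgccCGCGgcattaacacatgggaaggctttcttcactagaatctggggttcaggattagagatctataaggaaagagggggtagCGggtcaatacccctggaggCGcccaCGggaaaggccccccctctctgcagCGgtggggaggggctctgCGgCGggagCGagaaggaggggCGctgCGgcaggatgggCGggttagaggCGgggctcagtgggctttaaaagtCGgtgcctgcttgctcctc

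Among the windows shown, CpG sites were fewest before Snrpn and most numerous before Mest. Starts of the same gene differed, and another Mest window, not shown, held 7. The count was 3 in the shared Snrpn window, 2 in the upstream Snrpn window, 5 before Ndn, 7 before Magel2, 10 before Mkrn3 and 14 before Mest, beside a median of 6 over 32841 listed promoter windows of the same length. The letters TGCCGC, which the imprint-protecting protein Zfp57 is known to bind when methylated (on the other strand they read GCGGCA), were found on either strand in 2 of the 13 member windows, both of Mest starts 3 bases apart, and in 8.68% of all windows. The letters CGCATGCG, which read the same on both strands and form the centre of the motif of the transcription factor NRF1, were found in 4 of the 13 windows and in 1.55% of all. Those 4 were Ndn and the 3 upstream Snrpn starts. The 3 Snrpn windows share most of the sequence around the match, so they do not count as separate finds. This second motif was chosen after the sequences were seen, and a match is no proof of binding.

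Values below are background-corrected, quantile-normalized intensities on a log2 scale, and a detection p-value under 0.01 counted as above background. Where a gene had several probes, the one brightest on average stood for it in the tests. Array medians of the raw intensity lay between 103 and 134.9 units, and the share of probes above background was 40.56% to 42.43%. The labelled identities were borne by their markers: all 8 pluripotency markers were above background on 5 of the 6 pluripotent arrays and 7 of 8 in LinPos_iPSC, and none was in LinNeg_BM. All 9 measured blood markers were above background in LinNeg_BM and 0 or 1 on the pluripotent arrays, with Ptprc, Mpo and Spi1 below background there. Fibroblast or feeder markers stood apart in line 7, where 9 of 9 were above background with a summed level of 6015, beside 6 or 7 of 9 and 2069 to 2754 on the other pluripotent arrays. Lum was above background in line 7 and on no other array.

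**Figure D1:**
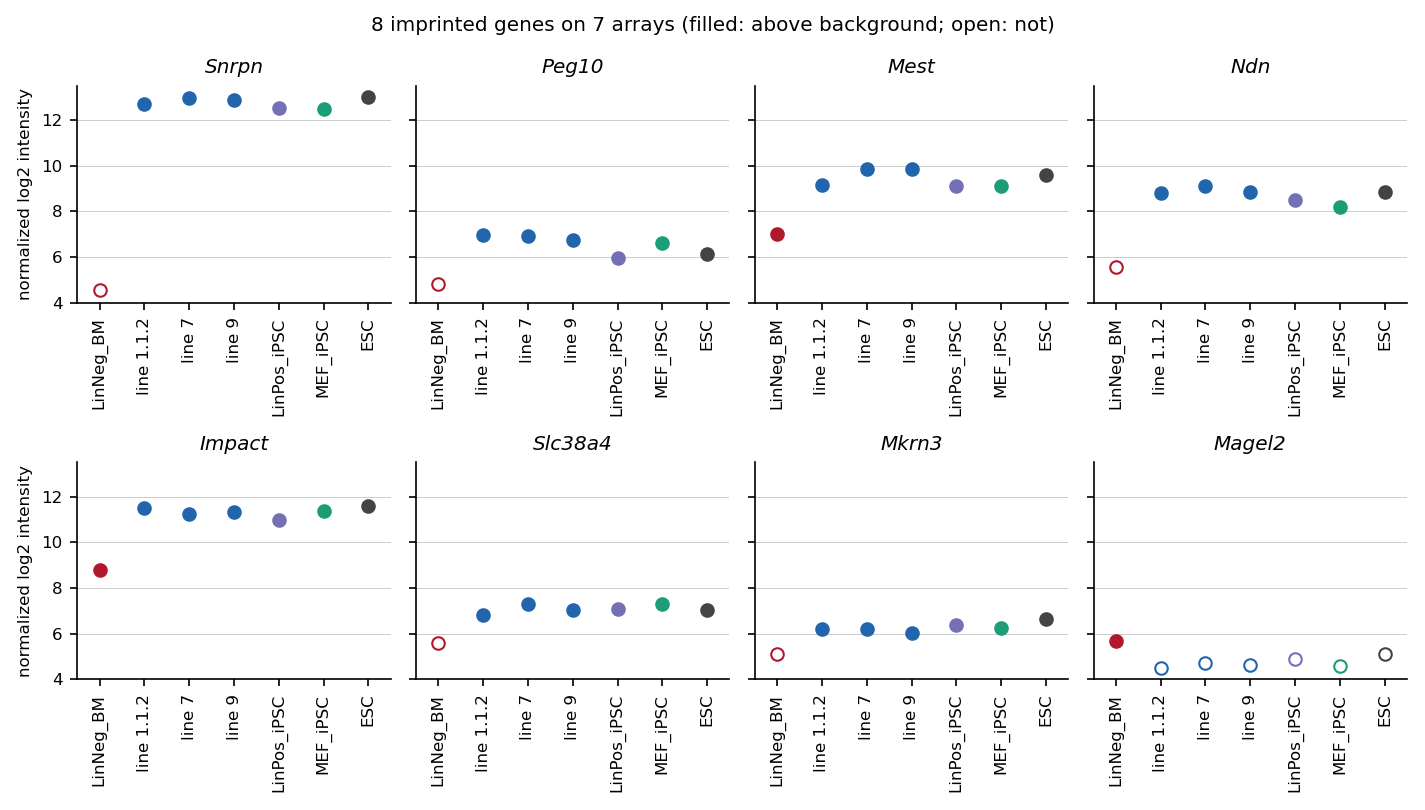
Normalized log2 intensity (y axis) of the probe tested for each of the 8 imprinted genes on the 7 arrays (x axis), 1 point per array, filled where the probe was above background and open where it was not. Snrpn runs from 4.55 in LinNeg_BM to between 12.50 and 13.00 on the 6 pluripotent arrays, and Magel2 is filled in LinNeg_BM and open on all others.

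Snrpn, which encodes the spliceosome protein SmN, had the widest gap between marrow and pluripotent cells among the 8 genes. Its normalized log2 intensity was 4.55 in LinNeg_BM, then 12.72, 12.99 and 12.87 in lines 1.1.2, 7 and 9, 12.54 in LinPos_iPSC, 12.50 in MEF_iPSC and 13.00 in ESC. The marrow value was below background (detection p-value 0.510, raw intensity 115.8) and all 6 pluripotent values lay far above it, at raw intensities of 5871.5 to 9323.5. Among the pluripotent arrays the whole range was 0.49, narrower than the median gene's 0.67. A second Snrpn probe gave 4.66 in LinNeg_BM, 8.44, 8.75 and 8.65 in the lines, 8.13 in LinPos_iPSC, 7.93 in MEF_iPSC and 8.47 in ESC. It placed the arrays in nearly the same order, with the marrow below background, the MEF_iPSC array the lowest of the pluripotent cells and LinPos_iPSC the next. The probe sequences were not used here, so it is not known which Snrpn transcripts either probe reads or whether it reads related genes.

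Ndn encodes necdin, a MAGE family protein known as a growth suppressor in neurons. Its level was 5.57 in LinNeg_BM, 8.81, 9.12 and 8.86 in lines 1.1.2, 7 and 9, 8.48 in LinPos_iPSC, 8.20 in MEF_iPSC and 8.84 in ESC. The marrow value missed the background threshold narrowly (detection p-value 0.0125), and all 6 pluripotent values lay above it by 2.63 or more. ESC fell within the range of the lines, and LinPos_iPSC and MEF_iPSC lay below the lowest line by 0.33 and 0.62.

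Mkrn3, a makorin with a RING finger of the kind found in ubiquitin ligases, was dim throughout. It stood at 5.12 in LinNeg_BM, below background with a detection p of 0.0752. It was above background on all 6 pluripotent arrays, at 6.22, 6.18 and 6.01 in lines 1.1.2, 7 and 9, 6.37 in LinPos_iPSC, 6.26 in MEF_iPSC and 6.62 in ESC. The single marrow array lay below all 6, which the filter made likely for a gene dim in marrow. Here the ESC array was the highest and the 3 lines the lowest of the pluripotent cells.

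Magel2, a MAGE family partner of a ubiquitin ligase in endosomal protein recycling, was the 1 member above background in marrow and nowhere else. Its level was 5.66 in LinNeg_BM (detection p-value 0.00752), against 4.50, 4.73 and 4.62 in lines 1.1.2, 7 and 9, 4.87 in LinPos_iPSC, 4.59 in MEF_iPSC and 5.09 in ESC. The marrow value sat at the lowest level called above background on that array, 5.65, so the gene was barely measured there and not measured on the pluripotent arrays, where detection p-values ran from 0.0514 in ESC to 0.588 in line 1.1.2.

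Peg10, a gene derived from a retrotransposon and needed for the mouse placenta, had the widest range among the pluripotent cells when each gene was read by its brightest probe. It was 4.80 in LinNeg_BM, below background at a detection p of 0.188, and 6.98, 6.91 and 6.76 in lines 1.1.2, 7 and 9. LinPos_iPSC stood at 5.94, ESC at 6.15 and MEF_iPSC at 6.60. The 3 lines were the highest arrays, and the pluripotent range of 1.04 exceeded that of 79.3% of 8445 genes above background on at least 1 pluripotent array. The dimmest Mest probe, described next, had a wider range of 1.35.

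Mest, which encodes a protein of the alpha/beta hydrolase fold and is expressed in embryonic mesoderm, was above background on all 7 arrays with each of its 3 probes. The brightest probe read 7.00 in LinNeg_BM, 9.17, 9.86 and 9.88 in lines 1.1.2, 7 and 9, 9.13 in both LinPos_iPSC and MEF_iPSC, and 9.60 in ESC. Line 1.1.2 lay nearly level with LinPos_iPSC and MEF_iPSC, and lines 7 and 9 above ESC, which gave Mest the largest SD between lines among the members above background there (0.40, n = 3). The probe next in brightness read 6.0 in marrow, 8.01, 8.37 and 8.29 in the lines, 8.20 in LinPos_iPSC, 7.45 in MEF_iPSC and 7.79 in ESC. The dimmest read 5.74 in marrow, 6.55, 6.78 and 7.06 in the lines, 6.45 in LinPos_iPSC, 5.82 in MEF_iPSC and 7.17 in ESC, so that MEF_iPSC came within 0.08 of marrow. All 3 probes put marrow lowest and MEF_iPSC next, and they disagreed on ESC, which was the highest array on the dimmest probe and lay below all 3 lines on the middle one.

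**Figure D2:**
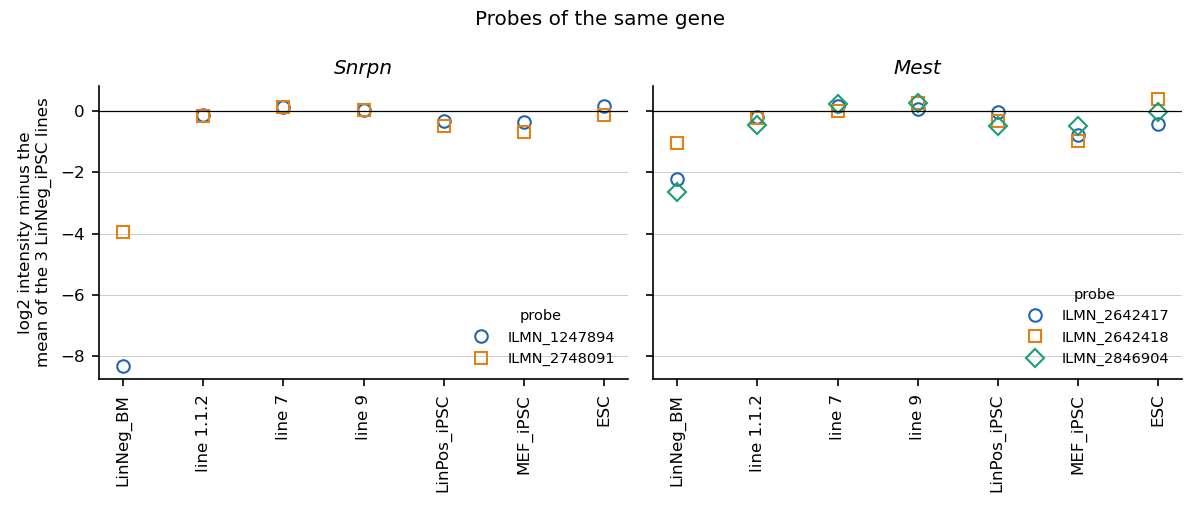
Log2 intensity minus the mean of the 3 LinNeg_iPSC lines (y axis) on each array (x axis), for the 2 Snrpn probes and the 3 Mest probes, 1 marker shape per probe. LinNeg_BM lies lowest on every probe shown, at a distance that runs from 8.31 to 3.95 for Snrpn and from 2.64 to 1.06 for Mest.

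Impact, an inhibitor of the amino acid sensor kinase Gcn2, was also above background on all 7 arrays. It read 8.77 in LinNeg_BM, 11.52, 11.25 and 11.34 in lines 1.1.2, 7 and 9, 10.97 in LinPos_iPSC, 11.37 in MEF_iPSC and 11.58 in ESC. MEF_iPSC fell among the lines, ESC lay just above them and LinPos_iPSC below by 0.29.

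Slc38a4, a sodium-coupled transporter of neutral amino acids known in placenta and liver, read 5.59 in LinNeg_BM (detection p-value 0.0125), 6.83, 7.31 and 7.03 in lines 1.1.2, 7 and 9, 7.08 in LinPos_iPSC, 7.29 in MEF_iPSC and 7.02 in ESC. The other 3 pluripotent arrays all fell within the range of the lines, and marrow lay 1.24 below the lowest line.

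The first comparison asked how the imprinted genes stood in the LinNeg_iPSC lines against the marrow they were made from. All 8 differed, 7 higher in the lines and Magel2 lower (limma, Benjamini-Hochberg adjusted p under 0.05 over 9263 genes). Of all genes tested, 59.5% differed in this comparison, 29.6% higher and 29.9% lower. The median fitted difference, which uses values below background as they stand, was 2.34 over the members and 0.02 over all genes. Entry into the test required a value above background on at least 1 array, so Snrpn, Peg10, Ndn, Slc38a4 and Mkrn3, dim in marrow, could hardly do other than rise, and Magel2 could hardly do other than fall. In bulk RNA a smaller share of expressing cells and less RNA per cell cannot be told apart.

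In the lines Snrpn was higher by at least 148-fold, at 12.86 ± 0.14 (SD, n = 3) against 4.55, with an adjusted p of 2.78e-05. Here and below, "at least" sets a value below background at the lowest value called above background on the same array. Its second probe was at least 7.79-fold higher, 3.95 on the log2 scale (adjusted p = 7.54e-05 in a fit of every probe), so the direction held on both probes and the size did not. Ndn was at least 9.69-fold higher (8.93 ± 0.16, n = 3, adjusted p = 0.000158). Mest and Impact were measured on both sides and rose 6.24-fold (9.64 ± 0.40, n = 3, adjusted p = 0.00185) and 6.05-fold (11.37 ± 0.14, n = 3, adjusted p = 0.000291). The other 2 Mest probes differed by 2.22 and 1.06 on the log2 scale, with adjusted p-values of 0.000596 and 0.0136 in the fit of every probe.

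The remaining rises are known only as lower bounds, since marrow was below background. Slc38a4 was at least 2.64-fold higher (7.06 ± 0.25, n = 3, adjusted p = 0.00437), Peg10 at least 2.35-fold higher (6.88 ± 0.11, n = 3, adjusted p = 5e-04) and Mkrn3 at least 1.40-fold higher (6.14 ± 0.11, n = 3, adjusted p = 0.00554). Magel2 was lower by a fitted 1.04 on the log2 scale, but the bound was at least 1.08-fold (adjusted p = 0.00522), since it was below background in all 3 lines. Within the chromosome 7 cluster the bounds thus ran from at least 148-fold higher for Snrpn to at least 1.08-fold lower for Magel2. Without line 7, whose feeder markers were high, the bounds were at least 141-fold for Snrpn, at least 9.08-fold for Ndn and at least 2.42-fold for Slc38a4. The measured fold for Mest was then 5.78, and all 8 members still passed, beside 4890 of all 9263 genes.

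**Figure D3:**
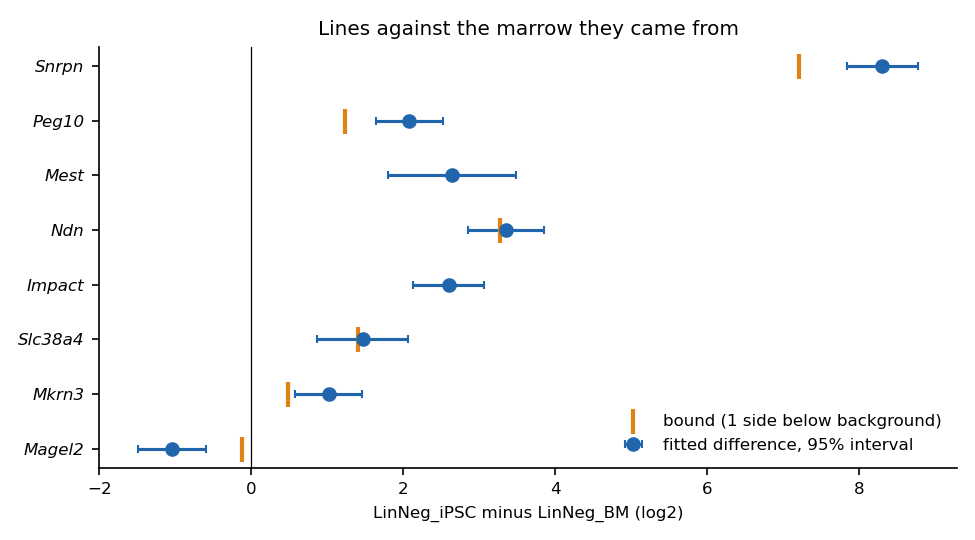
Difference between the mean of the 3 LinNeg_iPSC lines and the LinNeg_BM array on the log2 scale (x axis) for each gene (y axis), with its 95% interval from limma. The orange marks give the bound for genes below background on 1 side, which lies at 7.21 for Snrpn and at -0.12 for Magel2.

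The other 3 comparisons set the same lines against ESC, MEF_iPSC and LinPos_iPSC, to ask whether imprinted genes stood differently in iPSCs of this origin. No member passed the test in any of them, where 0%, 0.0756% and 0.313% of all 9263 genes passed in limma. These comparisons share the 3 lines and are not independent of one another. At an unadjusted p under 0.05 there were 3 of 8 members against ESC (Peg10, Mkrn3 and Magel2), 1 against MEF_iPSC (Ndn) and 1 against LinPos_iPSC (Peg10), beside 10.3%, 13% and 16.1% of all genes. Magel2 was below background on both sides there, so its p compares values that were not measured.

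Against ESC, the pluripotent control, Snrpn differed by -0.14 on the log2 scale (95% interval -0.61 to 0.33), Ndn by 0.09 (-0.41 to 0.59), Impact by -0.21 (-0.68 to 0.26), Slc38a4 by 0.03 (-0.57 to 0.63) and Mest by 0.04 (-0.80 to 0.88). The intervals, widest for Mest, do not show the groups to be equal. Peg10 was 0.74 above ESC in the mean of the lines (0.29 to 1.18, adjusted p = 0.356) and Mkrn3 0.49 below it (-0.93 to -0.04, adjusted p = 0.472). The 3 lines lay on one side of ESC for 4 of the 7 members above background on these 4 arrays, beside 60.2% of all such genes.

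Against MEF_iPSC, Ndn was 0.73 higher in the lines (0.24 to 1.23, adjusted p = 0.258) and did not pass. Mest differed by 0.51 (-0.33 to 1.35) on its brightest probe and by 0.78 and 0.98 on the others (adjusted p = 0.266 and 0.24 in the fit of every probe), Snrpn by 0.36 (-0.11 to 0.83) and Peg10 by 0.28 (-0.16 to 0.73). Impact differed by 0.00 (-0.47 to 0.47), Mkrn3 by -0.12 and Slc38a4 by -0.23. The 3 lines lay on one side of MEF_iPSC for 5 of the 7 members above background on these 4 arrays, beside 63.4% of all such genes. Of the 7 members above background on all 6 pluripotent arrays, MEF_iPSC was the lowest array for Snrpn, Mest and Ndn, and it was the lowest for 21% of the 6637 genes that met the same condition. Fibroblast or feeder markers in MEF_iPSC had a summed level of 2627, beside 2708 to 6015 in the lines, and their part in these differences was not tested.

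Against LinPos_iPSC, Peg10 was 0.95 higher in the lines (0.50 to 1.39) or 1.93-fold, and it did not pass (adjusted p = 0.114). Extraembryonic endoderm markers had a summed level of 4162 in LinPos_iPSC, 2841 in ESC and 2717 in MEF_iPSC. In lines 1.1.2, 7 and 9 the summed level was 7105, 3613 and 6033. All 8 measured markers were above background in lines 1.1.2 and 9 alone. The part of these markers in the differences was not tested. Mest differed by 0.50 (-0.34 to 1.34), Ndn by 0.45 (-0.05 to 0.95), Impact by 0.40 (-0.06 to 0.87) and Snrpn by 0.32 (-0.15 to 0.79). The lines lay on one side of LinPos_iPSC for 6 of the 7 members above background on these 4 arrays, beside 64.9% of all such genes: above it for Snrpn, Peg10, Mest, Ndn and Impact, and below it for Mkrn3. Of the 6 pluripotent arrays LinPos_iPSC was the lowest for Peg10 and Impact, and it was the lowest for 22.4% of the 6637 genes.

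**Figure D4:**
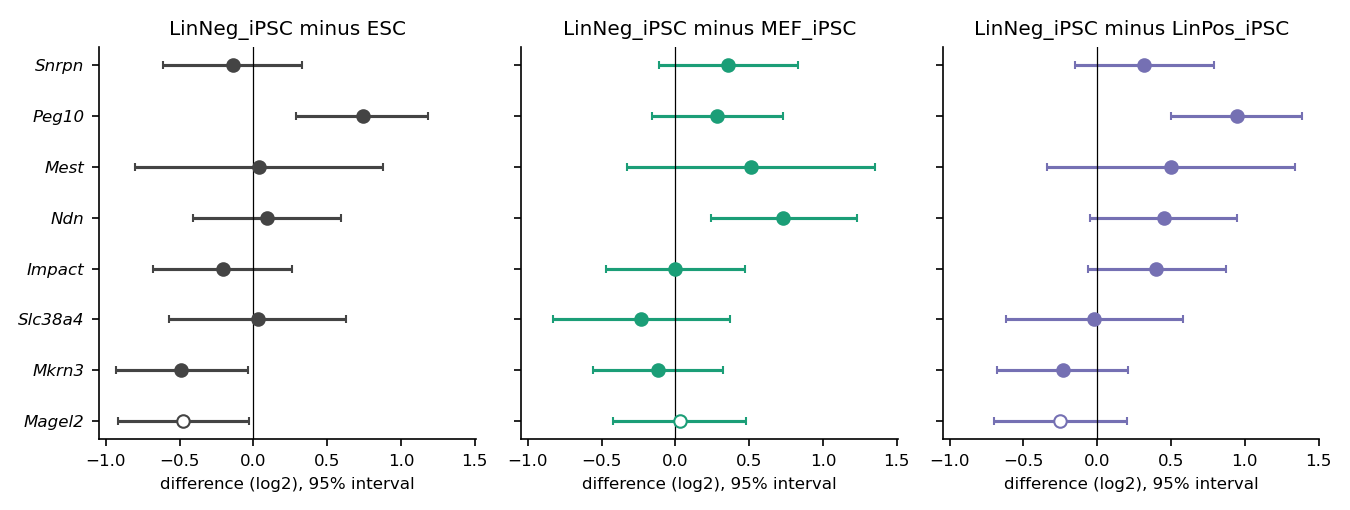
Difference between the mean of the 3 LinNeg_iPSC lines and the ESC, MEF_iPSC or LinPos_iPSC array on the log2 scale (x axis) for each gene (y axis), with 95% intervals from limma that are not adjusted for the number of genes. Magel2 is drawn open because it was below background on both sides, and, for the brightest probe of each gene, the points farthest from 0 are those of Peg10 against LinPos_iPSC (0.95) and ESC (0.74).

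Other imprinted genes were set beside these from a list of 24 paternally and 28 maternally expressed genes. Of these, 16 and 20 had a probe. Only 5 and 12 were above background on at least 1 array and so tested. Of the 5 paternally expressed genes tested, 4 were higher in the lines than in marrow and 0 lower (limma, adjusted p under 0.05), beside the 29.6% of all genes higher and 29.9% lower in this comparison. The median fitted difference was 1.47, the value of Dio3, whose bound was only 0.37 on the log2 scale. The 4 were the growth factor gene Igf2 (at least 66.1-fold), the Notch-like Dlk1 (at least 8.12-fold), the deiodinase gene Dio3 (at least 1.29-fold) and Inpp5f (1.61-fold), and Nnat did not pass. Igf2, Dlk1 and Dio3 were below background in marrow and entered the test through the pluripotent arrays, so the filter left them little but to rise. Igf2 and Dlk1 were highest in line 7, at 12.72 and 10.45, beside its high feeder markers, whose part in this was not tested. Without line 7 the bounds fell to at least 46.5-fold for Igf2 and at least 4.39-fold for Dlk1, and both passed, while Inpp5f did not (adjusted p = 0.0775, and 0.0686 without line 9). Of 12 maternally expressed genes, 3 were higher and 3 lower, with a median of -0.10, a share called near the 59.5% of all genes. Phlda2 (9.95-fold), Cdkn1c, a cell-cycle inhibitor (at least 4.08-fold), and Slc22a18 (1.63-fold) were higher, and Atp10a (-1.05), Grb10, an adaptor of growth factor receptors (-1.03), and Ube3a, a ubiquitin ligase (-0.60), were lower on the log2 scale. Cdkn1c was below background in marrow and entered the test through the pluripotent arrays, so the filter left it little but to rise. Another Slc22a18 probe went the other way (-0.83, adjusted p = 0.0268 in the fit of every probe) and another Ube3a probe differed by 0.37 (adjusted p = 0.187), so neither gene has a settled direction. Ube3a also missed the test without line 1.1.2 or 7 (adjusted p = 0.0934 and 0.116) and Slc22a18 without line 9 (adjusted p = 0.053). The difference between the paternal and maternal lists was not tested. Against ESC, MEF_iPSC and LinPos_iPSC no gene of either list passed.

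**Figure D5:**
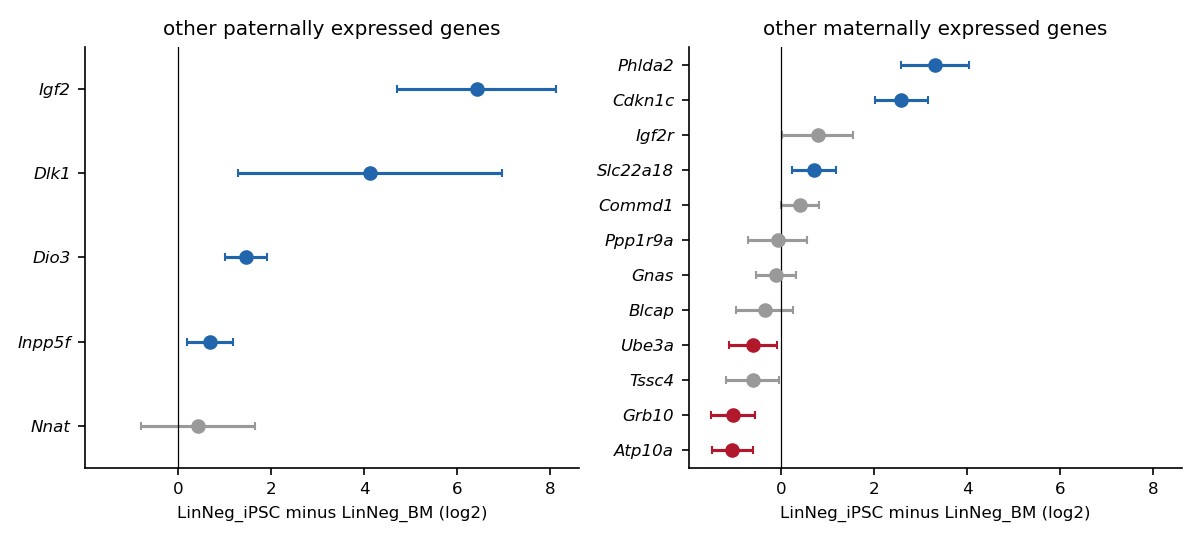
Difference between the LinNeg_iPSC lines and LinNeg_BM on the log2 scale (x axis) with 95% intervals, for the 5 other paternally expressed and 12 maternally expressed genes tested. Blue marks genes called higher, red lower and grey neither, 4, 0 and 1 on the paternal side and 3, 3 and 6 on the maternal side.

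Ube3a and Atp10a belong to the same chromosome 7 region as Snrpn and Ndn. Of the 39 distinct genes within 3 places of a member in the chromosome order, 9 had a probe and 4 were tested. The 1 of these that is not itself a member was Cep41, a centrosomal protein gene beside Mest, which was lower in the lines than in marrow by 0.95 on the log2 scale (adjusted p = 0.0127) while Mest was higher. Sgce beside Peg10 and Peg12 beside Mkrn3, both imprinted in the mouse, had probes that were below background on all 7 arrays.

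Of 12 tested genes for proteins that set or keep imprints, 5 were higher than in marrow and 1 lower, with a median difference of 0.05. The share called was near the 59.5% of all genes, and Dnmt3l and Dppa3, below background in marrow, entered the test through the pluripotent arrays. Dnmt3l, a cofactor of methylation in the egg and sperm, was at least 175-fold higher, Dppa3, which protects methylation in the early embryo, at least 18.6-fold, Dnmt3b, a de novo methyltransferase, 4.86-fold, Khdc3 3.93-fold and Trim28, the corepressor that Zfp57 recruits, 2.34-fold. A further Dnmt3b probe differed by 1.20 on the log2 scale (adjusted p = 0.0108 in the fit of every probe), beside 2.28 on the tested one. The maintenance methyltransferase Dnmt1 was lower by 0.75 on the log2 scale (adjusted p = 0.0133). None of the 12 passed against the other pluripotent arrays. The widest gaps against LinPos_iPSC were Dppa3 (1.38 higher in the lines, adjusted p = 0.0872) and Dnmt3b (1.22 higher, adjusted p = 0.0806). In MEF_iPSC, Dppa3 (10.22) and Dnmt3b (12.79) stood above all 3 lines. Any link between these genes and the levels of the members was not tested.

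The genes most like the members were sought over the 6 pluripotent arrays for the 3 members of widest range there on their brightest probe, Peg10, Ndn and Mest, among genes with a range of at least 1. Peg10 was followed most closely by Hes6 (Pearson r = 0.992), the imprinted Grb10 (r = 0.982) and Rbp7 (r = 0.966). Grb10 read 8.86, 9.02 and 8.73 in lines 1.1.2, 7 and 9, 8.68 in MEF_iPSC, 7.97 in ESC and 7.71 in LinPos_iPSC, with the same 2 lowest arrays as Peg10. Ndn was followed by Pid1 (r = 0.965), Ap5b1 (r = 0.963) and Hecw2 (r = 0.948), which shared its low values in LinPos_iPSC and MEF_iPSC. On those arrays Ap5b1 (5.10 and 4.78) and Hecw2 (4.85 and 4.67) were below background. The lowest values called above it there were 5.54 and 5.57. Hecw2 was also below background in line 9, at 5.55 beside a lowest value called above it of 5.56. Mest was followed by Fbp1 (r = 0.921), Arsb (r = 0.905) and Mup6 (r = 0.903). Fbp1 (4.85, 4.65 and 5.18) and Arsb (5.49, 4.90 and 5.18) were below background in line 1.1.2, LinPos_iPSC and MEF_iPSC. Fbp1 was also below background in ESC, at 5.65 beside a lowest value called above it of 5.67. With 6 arrays and 1943 genes searched, high correlations are common, and these are descriptions of the same arrays with no test.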

How the data were processed

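Biotinylated cRNA was made from total RNA with 12 h of transcription, per the labels' protocols. The submitters' processing notes list BeadStudio 3.2, RMA and lumi, with neither role nor order. The deposited intensity of each probe was on a linear scale and, by its values, neither background-subtracted nor scaled. The deposited detection p-value stood beside it. A second deposited table held the authors' processed log2 values, quantile-normalized and in the same order within each array as the intensities (Spearman correlation 1), and was used as an alternative.

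Intensities were corrected with limma 3.58.1 (R 4.3.3) in the manner of neqc, with the negative controls inferred from detection p-values and an offset of 16, then quantile-normalized and taken to log2. The offset shrinks differences of dim probes. Probes were named by the platform annotation (23978 with a symbol) and matched by gene identifier to a GRCm38.p6 gene table (23962). The brightest of a gene's probes above background (detection p under 0.01 on at least 1 of 7 arrays) represented it, leaving 9263 genes. Differences came from 1 limma fit (lmFit, eBayes) with 5 groups, 2 residual and 3.157 prior degrees of freedom, Benjamini-Hochberg adjustment and a threshold of 0.05. The number of arrays limits the precision. The fit was tested on simulated data, with 50 genes changed against LinNeg_BM at each of 4 sizes. The share called was 0.24 at a log2 difference of 1, 0.6 at 2, 0.86 at 4 and 1 at 8. Differences of 1 were thus mostly missed there. No column of values was left unused (0).

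Members and lists were chosen with earlier results of these data known. The text names the members, other list genes past a test, tested neighbours, and the 3 genes most correlated with each of the 3 members of widest range. Promoter sequences are from RefSeq.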

Additional observations from a re-analysis of the deposited data

How the results depend on the processing

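Each comparison was repeated under 14 alternatives, and that against LinNeg_BM under 15. All 8 members passed against LinNeg_BM under each alternative, except that Magel2, above background on 1 array, was not tested when 3 arrays were required (7 of 7 passed). No member passed in the other 3 comparisons under any. Sizes against LinNeg_BM varied: Snrpn ran from 6.13 to 10.16 on the log2 scale, Peg10 from 0.86 to 3.24, Mkrn3 from 0.37 to 1.61 and Magel2 from -2.16 to -0.39. With arrays scaled to a common median the median of all genes stood at -0.39 against LinNeg_BM, at -0.16 against ESC and at -0.12 against LinPos_iPSC, and 33.2% of called genes were higher against LinNeg_BM (58.9% with the filter of 3 arrays), while 7 members stayed higher. Counts of all genes called ranged from 4634 to 5987 against LinNeg_BM, where 7664 to 16593 genes were tested. They ranged from 0 to 97 against MEF_iPSC and from 0 to 269 against LinPos_iPSC.

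Signs turned in 12 member differences, none past the test. With median scaling, Mest (-0.19), Ndn (-0.10) and Slc38a4 (-0.06) stood below ESC and Impact (-0.15) below MEF_iPSC. With the mean of its probes Snrpn stood at 0.01 against ESC. Leaving out 1 line at a time gave ranges that crossed or reached 0: against ESC, -0.08 to 0.27 for Mest (-0.07 without line 7), 0.00 to 0.15 for Ndn and -0.10 to 0.15 for Slc38a4, against MEF_iPSC, -0.07 to 0.06 for Impact and -0.03 to 0.09 for Magel2, and against LinPos_iPSC, -0.15 to 0.09 for Slc38a4. The cause was not tested. Leaving out each line for the other gene lists and for the bounds, and counting sides over measured genes alone, were added after seeing the data. Slide as a block was not run, since the headers name no slides. No paired analysis was possible because only LinNeg_iPSC has more than 1 sample.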
